A study of Mus musculus with 2 samples.

Results

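The Zfp genes are a large group of mouse genes named for zinc finger proteins. Every gene whose symbol begins with Zfp and a digit was taken from the deposited expression table, with Zfp42 left out, and those with a mean of 100 or more reads over the 2 libraries were kept. Of 328 such symbols among 12836 genes in the table, 236 passed and 92 did not. The members were thus chosen by their mean read count, so their abundance is given as a description. A gene with reads in 1 library only could pass through that library alone, and such a gene had to differ between the libraries.

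The study compared morulae, the stage of compacted cells before the blastocyst, of the ICR mouse strain after injection of double-stranded RNA. The knockdown embryos had received RNA against Nat10 (dsNat10), the enzyme that places N4-acetylcytidine on RNA, and the control embryos RNA against GFP (dsGFP), a jellyfish gene that mouse embryos lack. The design text states 50 injected morulae, without saying whether each library held that number. Each group was 1 library made from pooled embryos, so no difference below has a replicate check, and less RNA per cell cannot be told apart from fewer cells of a kind. The whole table held 28303119 reads for dsNat10 and 29139232 for dsGFP.

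Most Zfp proteins bind DNA through tandem C2H2 fingers, each a short fold in which 2 cysteines and 2 histidines hold a zinc ion, and each finger reads a few bases. Many also carry a KRAB domain, which recruits Trim28 and, through it, the histone methyltransferase Setdb1 to silence chromatin. In the early embryo such proteins are known for keeping retroelements silent and for protecting methylation at imprinted genes, and they lie in clusters of similar copies formed by gene duplication. A minority of genes with a Zfp symbol encode other zinc-binding proteins, among them CCCH proteins that act on mRNA.

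To show what defines a finger, the codons of the first finger of 3 members with known early-embryo roles are printed 5′ to 3′ from the GENCODE M21 transcripts on GRCm38, with the codons of the zinc-binding cysteines and histidines in capitals.
Zfp57, chr17:37009679-37009741, plus strand, exon 3 of 3: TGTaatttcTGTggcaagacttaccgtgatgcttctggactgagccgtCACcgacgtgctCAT
Zfp445, chr9:122853399-122853461, minus strand, exon 7 of 7: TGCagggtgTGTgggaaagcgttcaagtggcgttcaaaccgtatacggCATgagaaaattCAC
Zfp809, chr9:22238764-22238826, plus strand, exon 5 of 6: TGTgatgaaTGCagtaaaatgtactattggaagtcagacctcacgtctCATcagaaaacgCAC
These 3 genes were picked as examples, and all had more reads in dsNat10 than in dsGFP, as given with their roles below. Zfp568 and Zfp992, from the KRAB repressors listed below, had fewer.

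The targeted gene was checked first. Nat10 had 37 reads after dsNat10 and 886 after dsGFP, a level 23.7-fold lower in the knockdown library (95% counting interval 17.1 to 33.9). Of 12 listed morula markers, 11 were in the table given and all 11 had 100 or more reads. Their summed level was 8078 counts per 1000000 reads (CPM) in dsNat10 and 8094 in dsGFP. Most of it came from Dppa5a, at 4898.5 and 4562 CPM, so the sums say little of the other markers. By log2 ratio 5 of the 11 lay above 0 and 6 below. Of the 11, Cdx2 and Krt8 were called lower in dsNat10 by the rule below and none higher; other markers of the outer cell lineage were within the limit, with Gata3 at 39991 and 30412 reads and Tfap2c at 7195 and 5732. Oocyte markers were low in both, and their sum was higher in dsNat10. The 3 found of 6 listed summed to 32.5 CPM against 5.54, with Zp3 at 642 and 106 reads, H1f8 at 286 and 0, and Gdf9 at 1 and 54. The 3 cumulus markers found of 8 summed to 29.1 and 34.9 CPM, nearly all from Amhr2, and the 5 blood and fibroblast markers found of 8 to 101 and 76.6 CPM. Their part in the results on Zfp genes was not tested.

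The Zfp genes differed in both directions, and more of them were higher than lower in dsNat10. A gene was called higher or lower when log2 of the ratio of CPM + 1 reached 1 or -1 and the read counts' ratio had an exact 95% interval clear of 1. By that rule 62 members (26.3%) were higher in dsNat10, against 15.7% of all 9283 genes with a mean of 100 or more reads, and 50 (21.2%) were lower, against 17.3%. The other 124 lay within the limit. The median log2 ratio was 0.13 over the members (0.14 with members at 0 in 1 library set to their bound) and -0.01 over all those genes, and the quartiles of the members were -0.78 and 1.06, against -0.61 and 0.60. Summed over all 236 members, reads were 203939 in dsNat10 and 183969 in dsGFP, 1.12-fold higher in CPM (counting interval 1.11 to 1.13). The intervals cover counting error only, since reads amplified by PCR without molecular identifiers are not independent molecules.

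**Figure D1:**
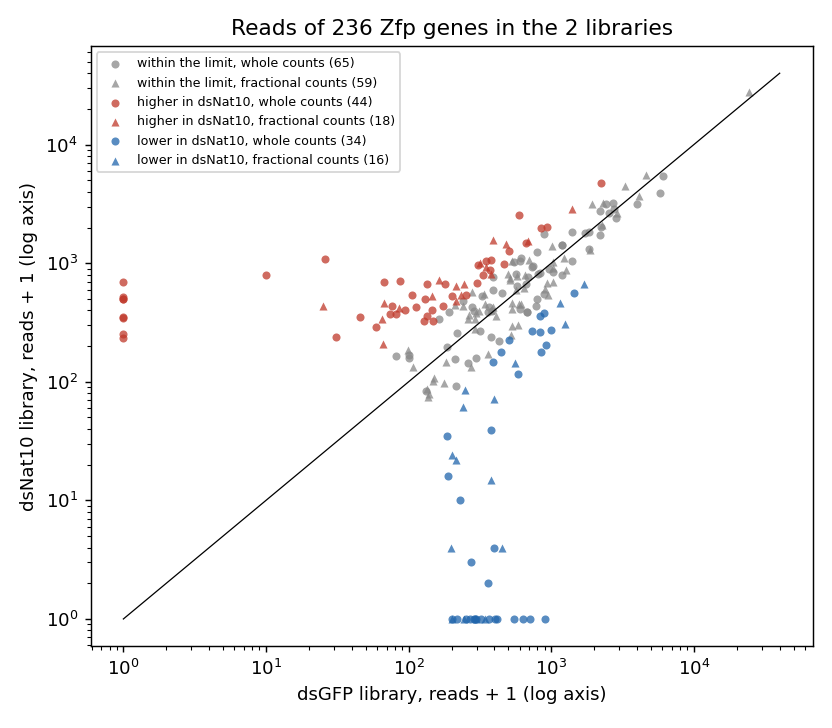
Reads + 1 per gene in dsGFP (x axis, log scale) and dsNat10 (y axis, log scale) for the 236 Zfp genes, each point 1 gene, triangles for fractional counts. Above and below the diagonal lie 62 genes called higher and 50 called lower, and the spread about the diagonal is widest where reads are few.

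Zfp genes were of low abundance, and a larger share was called at low abundance than at high. The median of their mean reads was 399, against 913 over all genes, with a range from 100.49 to 26045. Among the 82 members with a mean of 100 to under 300 reads, 24 (29.3%) were higher and 32 (39.0%) lower, close to the 28.6% and 36.5% of all genes of that abundance. Above that range the shares of members and of all genes parted. From 300 to under 1000 reads, 31 of 112 members (27.7%) were higher and 16 (14.3%) lower, against 21.6% and 21.2% of all genes. From 1000 to under 3000 reads, 6 of 34 (17.6%) were higher and 2 (5.88%) lower, against 9.31% and 9.06%. Above that, 1 of 8 was higher and 0 were lower, against 2.30% and 2.45%. Taking all 154 members with 300 or more reads together, 38 (24.7%) were higher against 12.1% of all genes, while 18 (11.7%) were lower against 11.9%. These 154 were of lower abundance than all genes with 300 or more reads, with a median of 637.6 mean reads against 1390. The classes above therefore compare genes of more like abundance. The median log2 ratio of the 154 was 0.26, against 0.00142 over all genes with 300 or more reads. Shares of smaller groups below are set beside all genes without matching for abundance, unless a class of reads is named.

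**Figure D2:**
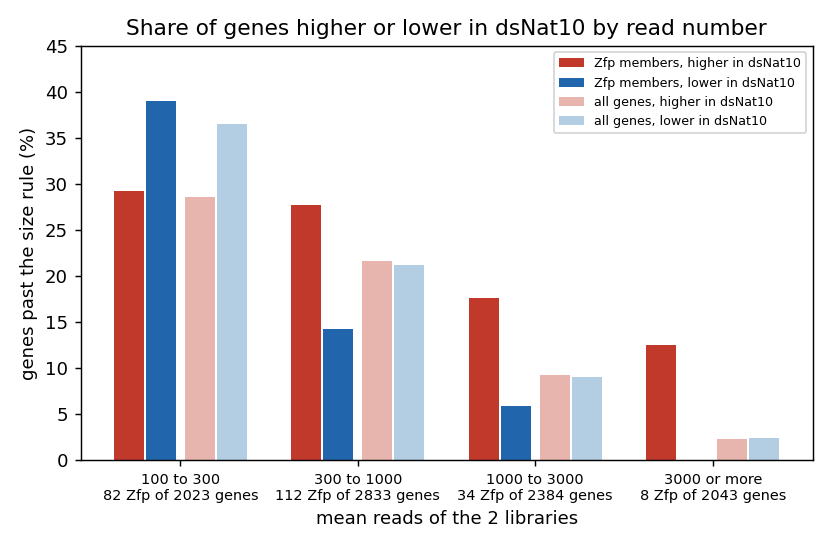
Percent of genes called higher or lower in dsNat10 (y axis, from 0) by class of mean reads (x axis), for Zfp genes and for all genes. In the lowest class the Zfp bars stand near those of all genes (29.3% against 28.6% higher), and from 300 reads up the higher bars of the Zfp genes exceed theirs.

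The limit of 100 mean reads fell among genes with lopsided counts. Just above it were Zfp882 (3 reads in dsNat10 and 198 in dsGFP), Zfp747 (0 and 201) and Zfp39 (15 and 187). Just below it were Zfp976 (149 and 51), Zfp786 (12 and 187) and Zfp213 (1 and 189). With no limit on abundance, 66 of the 328 symbols (20.1%) were higher and 104 (31.7%) lower, against 13.1% and 25.3% of all genes, and their median log2 ratio was -0.17, against -0.14 over all 12836.

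None of the 6 members with the most reads was called. Zfp706, a small protein with a single finger, had by far the most reads, 27721 in dsNat10 and 24369 in dsGFP, and per transcript length it also led with 1326 and 1206 FPKM, a unit that divides fragments by transcript length and library size. The median member stood at 5.14 FPKM in dsNat10 and 4.21 in dsGFP. Zfp568, a KRAB protein that represses a placental Igf2 transcript, had 5413 and 6084 reads, 1.11-fold lower (1.07 to 1.15). Zfp207, a spindle protein that binds microtubules and kinetochores, had 3936 and 5829 reads, 1.47-fold lower (1.41 to 1.53), the widest gap of the 3 and still within the limit. The other members of the 6, Zfp985, Zfp458 and Zfp534, lay between 1.11-fold lower and 1.38-fold higher, and these and Zfp706 had fractional counts.

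Zfp296 was an abundant member that did differ. It encodes a C2H2 factor of embryonic stem cells and germ cells, and it had 4710 reads in dsNat10 and 2239 in dsGFP, 2.13-fold higher (2.02 to 2.24), or 144 against 67.4 FPKM. The 42 members with 1000 or more reads had a median of 1899 mean reads, against 2729.5 over all such genes. Of the 42, 7 (16.7%) were higher, against 6.08% of all such genes, and 2 (4.76%) were lower, against 6.01%. Zfp180 differed most of these, with 2533 and 594 reads, 4.31-fold higher (3.94 to 4.72). Zfp317, Zfp954 and Zfp958, 3 KRAB proteins, had 1970 and 853, 1476 and 667, and 2022 and 929 reads, each between 2.20- and 2.33-fold higher. Zfp335 and Zfp932 completed the higher group and are described with their roles. The 2 lower genes were Zfp637, with 563 and 1447 reads, 2.54-fold lower, and Zfp825, with fractional counts of 669 and 1708.

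Many differences of large size were between some reads and none. Of the members, 19 (8.05%) had 0 reads in dsNat10, with 201 to 905 reads (median 298) in dsGFP, and 8 (3.39%) had 0 in dsGFP, with 234 to 697 (median 426) in dsNat10. Over all genes the shares were 5.17% and 1.64%. From 100 to under 300 reads 19.5% of members and 19.5% of all genes were at 0 in dsNat10, and 8.54% and 6.97% in dsGFP. From 300 to under 1000 reads the shares were 2.68% and 3.0% in dsNat10, and 0.893% and 0.388% in dsGFP. A fold against 0 is given as a lower bound, from a floor of 3 reads per library.

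Among members with whole counts, the 10 lowest in dsNat10 began with Zfp574, which had 0 reads against 905 in dsGFP, at least 299-fold lower. Zfp719 had 0 against 712, Zfp322a 0 against 631 and Zfp53 0 against 546, at least 235-, 208- and 180-fold lower. Next came 4 more genes at 0, which were Zfp472, Zfp407, Zfp763 and Zfp420, with 418, 405, 365 and 323 reads in dsGFP. Zfp219, with 3 and 396 reads, and Zfp346, with 1 and 359, were the other two, 131-fold lower (44.4 to 636) and 355-fold lower (63.4 to 14074). The wide intervals show that so few reads do not fix the size, and with 1 library per group the direction has no replicate check.

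The 10 highest were led by Zfp654, with 697 reads in dsNat10 and 0 in dsGFP, at least 235-fold higher. Zfp750, known as a factor of epidermal differentiation, had 788 and 9 reads, 88.5-fold higher (46.4 to 194). Zfp438 had 1088 and 25 reads, 44.0-fold higher (29.6 to 68.2), and was the most abundant of the 10. The other 7 had 0 reads in dsGFP: Zfp872, Zfp819, Zfp174, Zfp266, Zfp37, Zfp653 and Zfp943, with 522 to 234 reads in dsNat10.

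Of the 2 members that guard imprints, Zfp445 was called higher in dsNat10 and Zfp57 lay just within the limit. Zfp57 binds methylated imprint control regions and keeps their methylation, and it had 479 reads in dsNat10 and 241 in dsGFP, 2.01-fold higher (1.72 to 2.35). With 1 CPM added to each library this came to a log2 ratio of 0.93, within the limit. Zfp445, which acts beside it at imprints, had 1261 and 504 reads, 2.53-fold higher (2.28 to 2.81), and was called. Imprinted genes themselves were mixed: of 22 listed, 11 were in the table given and 8 passed the abundance limit, of which Inpp5f and Mest were higher and Mcts2 and Zrsr1 lower, 25% each way against 15.7% and 17.3% of all genes, with a median log2 ratio of -0.36. Mest (1262 and 273 reads) and Zrsr1 (1 and 307) had fractional counts.

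Of 8 listed KRAB proteins known to repress retroviral elements or Igf2, 7 passed the limit. Of these 7, 3 (42.9%) were higher and 0 lower, against 15.7% and 17.3% of all genes, with a median log2 ratio of 0.46 against -0.01. The other listed gene, Zfp708, fell below the abundance limit with 0 reads in dsNat10 and 184 in dsGFP. It was called lower, at least 60.7-fold, so the absence of lower genes among the 7 depends on that limit. Zfp809, which silences murine leukaemia virus through its primer binding site, had fractional counts of 994 in dsNat10 and 318 in dsGFP, 3.16-fold higher (2.78 to 3.59). Zfp932, which binds endogenous retroviruses, had fractional counts of 2891 and 1389, 2.10-fold higher (1.97 to 2.24), but within the limit when TPM or FPKM replaced counts or 5 CPM was added. Of the 75-base stretches of its transcript, 39.6% also occur in other genes, of which Gm15446 shares the most. Zfp819, with 501 and 0 reads, was the third. Zfp961, at 1789 and 1730 reads, and Zfp992, at 358 and 408, lay within the limit, as did Zfp568 and Zfp534.

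The genes of the corepressor machinery that KRAB proteins recruit were mixed. Of 30 listed genes of that machinery 28 passed the limit. Of the 28, 2 (7.14%) were higher and 5 (17.9%) lower, against 15.7% and 17.3% of all genes, with a median log2 ratio of -0.09. Their median of mean reads was 2276.8, and of all genes with 1000 to under 3000 reads 9.31% were higher and 9.06% lower. Mta1 fell below the limit with 2 reads in dsNat10 and 74 in dsGFP and was called lower, and Chd3 was not in the table given. Trim28, the hub that binds KRAB domains, had 10799 and 8461 reads, 1.29-fold higher (1.25 to 1.33) and within the limit. Morc3 and Resf1, which take part in silencing retroelements, were higher, with 4696 and 2356, and 3029 and 1242 reads. Setdb1 itself was lower, with 111 reads against 961, 8.57-fold (7.03 to 10.5), as were Chaf1a (23 and 1731), Daxx (230 and 906), Dnmt1 and Uhrf1.

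**Figure D3:**
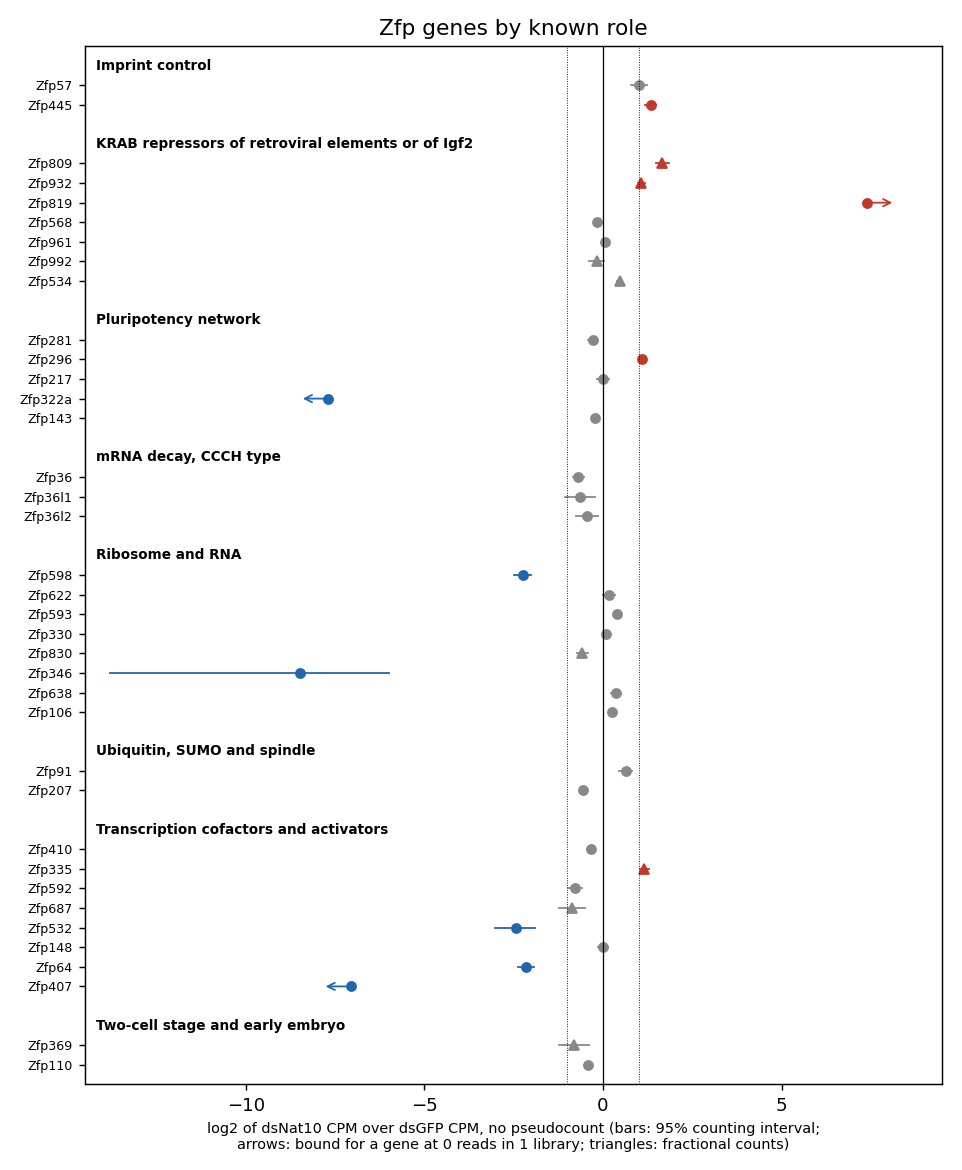
Log2 of the dsNat10 level over the dsGFP level in CPM with no pseudocount (x axis), for Zfp genes in groups by known role (y axis). Bars are 95% counting intervals, arrows are lower bounds for genes at 0 in 1 library and triangles mark fractional counts; Zfp445 and Zfp809 lie to the right, Zfp598 and Zfp346 to the left.

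Members of the pluripotency network did not shift one way. Of 6 that passed the limit, Zfp296 was higher and Zfp322a, with 0 and 631 reads, lower. That is 16.7% each way, near the 15.7% and 17.3% of all genes. Zfp281, a partner of the core pluripotency factors, had 836 and 1035 reads, 1.23-fold lower, and Zfp143, a promoter-binding activator, 2410 and 2857, 1.17-fold lower. Zfp217 was near equal at 662 and 670 reads.

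Of the listed Zfp genes whose products act on RNA, those that were called were lower in dsNat10. The CCCH proteins Zfp36, Zfp36l1 and Zfp36l2 bind AU-rich elements and speed mRNA decay. Zfp36 had 544 reads in dsNat10 and 887 in dsGFP, 1.61-fold lower (1.45 to 1.80), Zfp36l1 83 and 131, and Zfp36l2 154 and 212, and none of the 3 passed the limit. Of 10 listed ribosome and RNA proteins, 8 passed the abundance limit. Of these 8, 0 were higher and 2 lower (25%, against 17.3% of all genes), while their median log2 ratio was 0.11. Zfp326 (0 reads in dsNat10 and 147 in dsGFP) and Zfp385a (0 and 86) fell below the limit, and both were called lower. Zfp598, the ubiquitin ligase that marks collided ribosomes, had 176 and 844 reads, 4.75-fold lower (4.03 to 5.62), and Zfp346, which binds double-stranded RNA, had 1 and 359. Zfp593 and Zfp622, which act in maturation of the large ribosomal subunit, had 3141 and 2403, and 637 and 575 reads, both within the limit. Zfp330, Zfp830, Zfp638 and Zfp106 also lay within it, as did the ubiquitin ligase Zfp91, with 599 and 391 reads, 1.55-fold higher.

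Of 11 listed transcription cofactors and activators, 8 passed the abundance limit. Of these 8, 1 (12.5%) was higher and 3 (37.5%) were lower, against 15.7% and 17.3% of all genes, with a median log2 ratio of -0.72. Zfp292 fell below the limit with 185 reads in dsNat10 and 0 in dsGFP and was called higher, so this balance depends on that limit. Zfp516 (0 and 27 reads) and Zfp318 (36 and 80) also fell below it and were not called. Zfp335, a subunit of histone methyltransferase complexes, had fractional counts of 1526 and 691, 2.23-fold higher (2.04 to 2.45), but within the limit with TPM or FPKM. Zfp64 had 204 and 917 reads, 4.45-fold lower (3.82 to 5.20), Zfp532 had 34 and 186, 5.42-fold lower (3.74 to 8.05), and Zfp407 had 0 and 405. Of these, Zfp532 came within the limit with TPM, FPKM or 5 CPM added. Zfp592, which forms a complex with Zfp532 and Zfp687, had 390 and 678 reads, 1.72-fold lower, and Zfp687 had 96 and 176. Zfp410, whose known target is Chd4, had 1723 and 2208 reads, 1.27-fold lower, beside 2242 and 2415 reads of Chd4.

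KRAB and other members were compared by the proteins translated from the GENCODE M21 coding sequences, which 232 members had. A KRAB box was found in 139 members, of which 37 (26.6%) were higher and 27 (19.4%) lower, against 15.7% and 17.3% of all genes, with a median log2 ratio of 0.26. In the 93 members without one, 23 (24.7%) were higher and 23 lower, with a median of 0.01. KRAB members had a median of 12 fingers against 6, lay within 500 kb of another Zfp gene of the table in 123 cases against 35, and had a median of 393.5 mean reads against 495. Both medians of reads lie between 300 and 1000, where 21.6% of all genes were higher and 21.2% lower. By number of fingers, members with 1 to 3 had 3 of 25 higher and 5 lower, those with 4 to 6 had 8 of 27 and 8, and those with 7 to 9 had 14 of 45 and 8. Members with 10 to 12 fingers had 17 of 60 higher and 10 lower, those with 13 to 15 had 11 of 37 and 10, and those with 16 or more had 5 of 30 and 9. The 8 with no finger of the pattern searched had 2 higher and 0 lower. Zfp142 had the most fingers, 36.

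Other zinc finger families were counted for comparison with the 15.7% of all genes that were higher and the 17.3% that were lower. Of 28 Zbtb genes that passed the limit, 8 (28.6%) were higher and 8 lower, and of 12 Klf genes 2 (16.7%) and 2. The Zbtb genes had a median of 452 mean reads, and of all genes with 300 to under 1000 reads 21.6% were higher and 21.2% lower. Of 7 Zkscan genes 2 were higher and 3 lower, and of 6 Zscan genes 0 and 2.

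Similar copies limited what could be counted. A fractional count can arise when a read is divided among the genes it fits, and the sources used here do not say how reads were divided. Such counts were found in 93 of the 236 members (39.4%) and in 21.4% of all genes of that abundance. Among members that share no 75-base stretch of transcript with another gene, 28 of 137 (20.4%) had fractional counts. That share was 51.9% (27 of 52) where under 10% of such stretches were shared and 79.1% (34 of 43) where 10% or more were. KRAB members had them in 52.5% of cases and others in 17.2%. The other 9 members with the most shared sequence had whole counts.

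**Figure D4:**
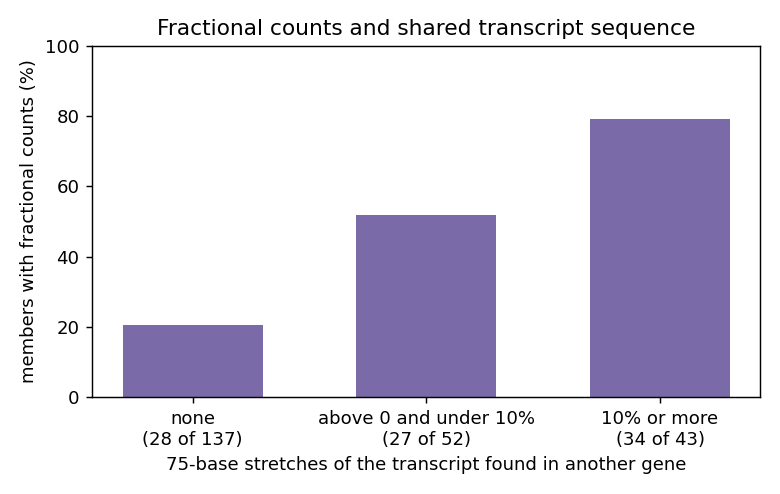
Percent of Zfp genes with a fractional count in at least 1 library (y axis, from 0) by the percent of 75-base stretches of the transcript that occur in another gene (x axis). The share climbs from 20.4% with none to 79.1% with 10% or more.

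Of the 93 members with fractional counts, 18 were higher (19.4%) and 16 lower (17.2%), against 44 (30.8%) and 34 (23.8%) of the 143 with whole counts. Over all genes, those with fractional counts were higher in 12.7% and lower in 15.5% of cases, and those with whole counts in 16.6% and 17.8%. The median log2 ratio was 0.02 for members with fractional counts and 0.22 for those with whole counts. The difference between these classes was not tested. The largest differences among fractional counts were all lower in dsNat10: Zfp422 with 3 and 449, Zfp646 with 0 and 340, Zfp874a with 0 and 298 and Zfp668 with 14 and 375.

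The most similar pairs of members show the limit in sequence. Zfp960 and Zfp97 on chromosome 17 have proteins 96.3% identical, and their aligned coding sequences differ at 30 of 1638 bases. The stretch of 120 coding bases below, in lower case as no base differs, is the same in both, so a read from it fits either gene.
Zfp960, chr17:17087785-17087904, plus strand, and Zfp97, chr17:17145000-17145119, plus strand: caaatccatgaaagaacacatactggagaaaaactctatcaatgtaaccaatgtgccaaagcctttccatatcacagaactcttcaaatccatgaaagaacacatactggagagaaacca
Zfp960 had a count of 3151 in dsNat10 and 1923 in dsGFP, 1.66-fold higher, and Zfp97 686 and 935, 1.35-fold lower. Their sum does not depend on how shared reads were divided between them, and it was 3837 and 2858, 1.36-fold higher (1.29 to 1.42).

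Zfp955a and Zfp955b, with proteins 95.4% identical, differ at 29 of 1635 coding bases. Zfp955a had 434 and 24, 18.3-fold higher (12.1 to 28.8), and Zfp955b 363 and 266, 1.38-fold higher. The pair summed to 797 and 290, 2.78-fold higher (2.42 to 3.19), so the sum was higher as well.

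Zfp534 and Zfp987, with proteins 87.6% identical, are farther apart, and their aligned coding sequences differ at 71 of 1899 bases. Of the 75-base stretches of the Zfp534 transcript, 53.6% also occur in other genes, of which Zfp987 shares the most. For Zfp987 that share was 87.4%, and Gm8935 shares the most. In the 120 coding bases below, which differ more than the coding sequence as a whole, capitals mark the 18 bases that differ.
Zfp534, chr4:147675263-147675382, minus strand: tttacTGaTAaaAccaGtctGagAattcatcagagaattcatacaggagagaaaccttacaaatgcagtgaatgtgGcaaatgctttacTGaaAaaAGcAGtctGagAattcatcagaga
Zfp987, chr4:146124828-146124947, plus strand: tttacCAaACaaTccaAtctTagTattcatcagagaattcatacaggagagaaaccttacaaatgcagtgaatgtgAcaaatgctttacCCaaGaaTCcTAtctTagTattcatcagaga
Zfp534, which acts on retroelements in the early embryo, had 4472 and 3266, 1.38-fold higher, and Zfp987 had 337 and 289, 1.18-fold higher. They summed to 4809 and 3555, 1.37-fold higher (1.31 to 1.43). One more pair, Zfp110 and Zfp369, with 83.7% protein identity, had 1039 and 1397, and 78 and 137, and both were within the limit.

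Most Zfp genes have other Zfp genes nearby. Of the members, 161 lay within 500 kb of another Zfp gene of the table, whether or not that gene passed the abundance limit. Genes linked in this way form a neighbourhood, and 9 neighbourhoods with 5 or more members held 82 members. On chromosome 4, from 145510759 to 147812229 (GRCm38), 13 members from Zfp990 to Zfp984 all had fractional counts and none was called. Their median of mean reads was 745.91, and of all genes with 300 to under 1000 reads 21.6% were higher and 21.2% lower. Their log2 ratios ran from -0.78 (Zfp982) to 0.98 (Zfp990), with a median of 0.35, and their summed counts were 17447 and 14685, 1.20-fold higher (1.17 to 1.23). That is the one neighbourhood of the 9 with no call.

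Other neighbourhoods held genes that differed in opposite directions. On chromosome 7, Zfp719 (43579559 to 43593710) was at 0 reads in dsNat10 and 712 in dsGFP, while Zfp819 beside it (43607135 to 43618279) had 501 and 0. On chromosome 9, from 22055411 to 22307814, Zfp653, Zfp872 and Zfp809 were higher and Zfp810, with 38 and 377 reads, was 9.82-fold lower. On chromosome 17, from 32765496 to 33631716, 4 of 11 members were higher, among them Zfp101 (697 and 66 reads), Zfp952 (707 and 86) and Zfp871 (437 and 75). In the same stretch Zfp472, Zfp763 and Zfp563 had 0 reads in dsNat10. The median of mean reads over the 11 was 314.4, and of all genes with 300 to under 1000 reads 21.6% were higher and 21.2% lower.

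In 3 neighbourhoods more members were lower than higher, the one on chromosome 7 with Zfp420 among them. On chromosome 13, from 66670274 to 67637803, 4 of 9 members (44.4%) were lower and 1 higher, with a median log2 ratio of -0.90. Their median of mean reads was 200.78, and of all genes with 100 to under 300 reads 36.5% were lower. On chromosome 7, from 127242996 to 127885996, 3 of 5 were lower, which were Zfp646, Zfp668 and Zfp747, and Zfp688 was higher with 535 and 252 reads. The median of mean reads over these 5 was 170.09, in the same abundance class. The highest median log2 ratio, 1.57, was in the 5 members on chromosome 9. Their median of mean reads was 261, and of all genes with 100 to under 300 reads 28.6% were higher.

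**Figure D5:**
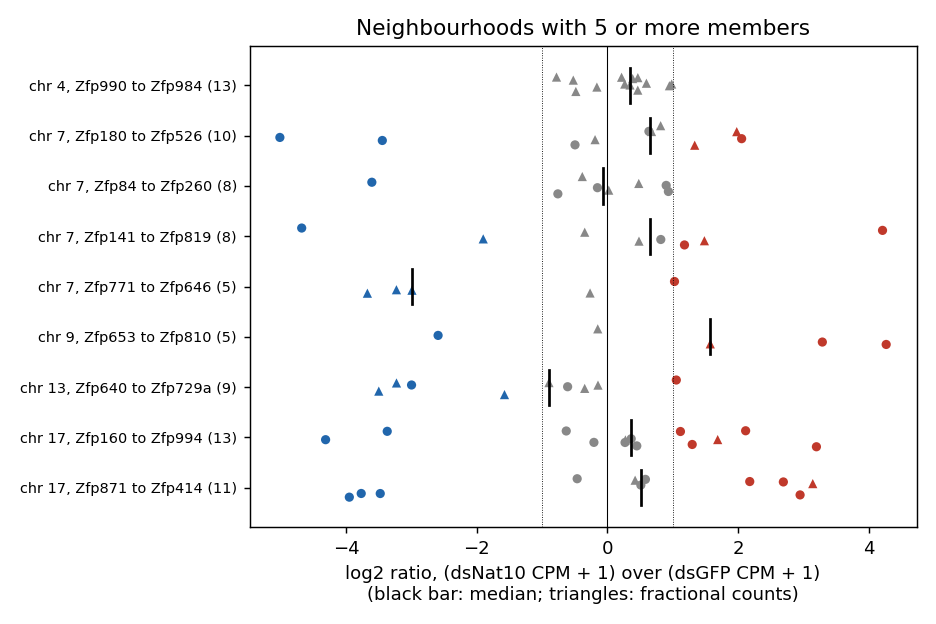
Log2 ratio of CPM + 1 in dsNat10 over dsGFP (x axis) for each Zfp gene in the 9 neighbourhoods with 5 or more members (y axis), coloured by call, with a black bar at each median and triangles for fractional counts. The 13 genes on chromosome 4 all lie within the limit of 1, while the other neighbourhoods hold called genes.

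The authors' counts and FPKM values were compared to see whether a gene's measured length stayed the same in both libraries. The ratio of count to FPKM was formed for the 172 members with at least 1 FPKM in both libraries. It differed by more than 1.5 times between libraries for 3 of them (1.74%), against 78 of 7791 genes (1.0%). Those were Zfp950, with near-equal counts of 278 and 291 but 3.64 and 9.77 FPKM, Zfp644, with 815 and 377 but 4.86 and 1.14 FPKM, and Zfp72, with 143 and 261 but 1.26 and 4.03 FPKM. Zfp644 was called higher by its counts, and all 3 were singled out by their values.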

How the data were processed

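SMART-seq2 libraries of polyadenylated RNA were read from both ends on a DNBSEQ machine, per the labels. Trim Galore, HISAT, HTSeq and GRCm38 are named in the submitters' processing notes, without versions. The authors deposited estimated counts that are not normalized, of which 23.2% of genes have a fractional one, and these were rounded to whole numbers. The authors also deposited TPM and FPKM values, which divide by transcript length and library size.

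Counts were scaled by TMM (edgeR 4.0.16, R 4.3.3), which moved log2 ratios by -0.03 against plain totals. Ratios carry exact Clopper-Pearson 95% intervals (scipy 1.17.1). With 1 library per group no test or p-value was computed. A pseudocount of 1 CPM was used for log2 ratios and none for folds, and a count of 0 was set to a floor of 3 reads (0.105 and 0.104 CPM).

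Gene positions came from RefSeq (GRCm38.p6), matched for all 236 members by gene identifier. Proteins were translated from GENCODE M21 coding sequences, since no RefSeq protein table was used here, and 232 members matched. A finger was counted as Cys, 2 to 4 residues, Cys, 12 residues, His, 3 to 5 residues, His. KRAB boxes were found with HMMER 3.4 (E-value up to 0.0001) from a profile of 117 windows that matched a strict pattern. Protein identity came from BLAST 2.17.0. The calling steps were tested on simulated data.

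Named genes were the 10 highest and 10 lowest called members with whole counts, the 6 with most reads and the 6 with highest FPKM, the 4 largest differences and 4 most similar pairs among copies, role lists and the 3 genes either side of the limit. Others named were the called members with 1000 or more reads, members of neighbourhoods and genes singled out by their values. The members and lists were chosen with earlier results of these data known. Alternatives were other scaling (DESeq2 1.42.0 size factors, plain totals), pseudocounts, TPM or FPKM in place of counts, whole counts alone and other abundance limits.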

Additional observations from a re-analysis of the deposited data

How the results depend on the processing

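The counts of members depended most on the abundance limit, since fewer genes enter at a higher one. The 62 higher members became 38 at a mean of 300 or more reads and 7 at 1000 or more. The 50 lower members became 104 with no limit, 18 at 300 or more, 2 at 1000 or more, and 29 with at least 3 reads in both libraries, an alternative chosen after seeing the data. The median log2 ratio of 0.13 became 0.26 at 300 or more reads and turned to -0.17 with no limit, where all genes stood at -0.14. Under the other alternatives the higher count ran from 44 to 66, and the lower count from 34 to 53. Of 414 values of 69 named members, 0 changed direction among called ones, and 2 within the limit, Zfp148 and Zfp217, changed sign with plain totals, TPM or FPKM. Zfp335 fell below the limit with TPM or FPKM, and Zfp532 and Zfp932 with those or a pseudocount of 5 CPM.

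No paired analysis was possible because each group is 1 library and the labels give no replicate numbers, which also leaves no replicate to omit. Depth limits the size of a difference for members with under 300 reads, where 19.5% were at 0 in dsNat10.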
